A study of Mus musculus with 9 samples.

Results

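The 52 genes described here act in the G2 phase and in mitosis, and were taken as a list of mitotic kinase, kinetochore, spindle and cytokinesis genes from the 25239 gene symbols of one expression table. All 52 were found, and all 52 were measured well enough to be tested, at a mean of 1 FPKM or more over the libraries. FPKM counts sequenced fragments per kilobase of gene, scaled to the size of the library, so that levels of different genes can be set beside each other per length. The list was drawn up with other results of these data known.

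The cultures were primary astrocytes from the cerebral cortex of mouse pups at postnatal day 4, kept in medium with horse and bovine serum. A first group received 200 µM hydrogen peroxide for 3 h and was harvested 72 h after the wash (day 3), a second group received the same exposure and was harvested 24 h after the wash (day 1), and the remaining group was untreated (control). Each group had 3 RNA libraries, 9 in all. The labels give no strain, sex or genotype, no harvest time for the controls, and no word on whether replicates came from separate cultures. The p-values therefore rest on how far the libraries of a group differ, a spread that may be only technical, and time in culture cannot be told apart from the exposure in either comparison with control. Between day 3 and day 1, time in culture cannot be told apart from time since the exposure.

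Entry into mitosis is driven by CDK1 bound to cyclin B, switched on by CDC25 phosphatases, and the Aurora and Polo-like kinases then build the spindle and attach it to the kinetochores. The spindle checkpoint holds back the anaphase-promoting complex until every chromosome is attached, after which cyclin B and securin are degraded, the sister chromatids part and the cell divides. Most of the genes involved are transcribed mainly in G2 and M phase, and many are repressed by the DREAM complex and activated by B-MYB and FOXM1 through promoter elements called the cell cycle genes homology region (CHR) and the CCAAT box. Astrocytes of the rodent cortex divide during the first postnatal weeks, and they also divide in serum-containing culture.

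The promoters of the members shared these elements, which the choice of genes had not used. RefSeq promoter sequences (GRCm38.p6, 250 bases before to 50 after each gene start) were matched for 42 of the 52 genes. A CHR, searched as TTTGAA or TTCGAA on either strand, was found in 33 of the 42 (78.6%), beside 21.7% of the 27025 genes with a promoter in the same set. A CCAAT box, searched as CCAAT on either strand, was found in 31 of the 42 (73.8%), beside 41.1% of all genes. Both elements were present in 66.7% of the members and in 8.6% of all genes. The CHR lay close to the gene start: it began within 50 bases of it in 73.8% of the members and in 6.1% of all genes. It began in the 25 bases from the start onward in 35.6% of the members' windows. In the 25 bases before the start the share was 13.3%, so the stretches printed below do not show the most frequent position. The letters of the 2 elements do not overlap each other, and a match describes the sequence without showing that a factor binds there. Shown here, because they are the most highly expressed members with a CHR in the 50 bases before the start and at most 30 bases of annotated gene in the stretch, are the 100 bases before the start of 5 genes, read 5′ to 3′ on the gene's strand. Capitals mark CHR elements (TTTGAA, or TTCAAA where the element is on the opposite strand) and CCAAT boxes (CCAAT, or ATTGG on the opposite strand).
Bub3: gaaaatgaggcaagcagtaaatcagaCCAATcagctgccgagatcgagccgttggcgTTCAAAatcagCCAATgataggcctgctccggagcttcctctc
Ube2c: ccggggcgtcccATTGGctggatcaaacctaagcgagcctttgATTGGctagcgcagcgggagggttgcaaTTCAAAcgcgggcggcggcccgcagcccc
Top2a: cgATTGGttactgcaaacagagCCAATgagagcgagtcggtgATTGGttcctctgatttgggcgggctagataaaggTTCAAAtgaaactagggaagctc
Cdc20: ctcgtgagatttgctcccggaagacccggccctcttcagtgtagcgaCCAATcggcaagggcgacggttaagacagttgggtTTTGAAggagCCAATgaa
Ckap2l: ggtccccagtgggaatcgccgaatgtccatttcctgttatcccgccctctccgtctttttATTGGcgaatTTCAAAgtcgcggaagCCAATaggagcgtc

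These stretches are chr7:131560270-131560369 (plus strand, Bub3), chr2:164769829-164769928 (plus strand, Ube2c), chr11:99024190-99024289 (minus strand, Top2a), chr4:118437344-118437443 (minus strand, Cdc20) and chr2:129297213-129297312 (minus strand, Ckap2l). In Top2a and in Cdc20 the CHR began 35 bases after the beginning of a CCAAT box, in Bub3 31 bases and in Ube2c 28 bases after it. Such a spacing, taken as 25 to 40 bases after these positions had been seen, was found in 35.7% of the members and in 0.8% of all genes. The genes whose positions set this range are among those members, so the shares are not an independent comparison. In the stretch of Ckap2l no CCAAT box stood at that spacing. The calls described below were made in genes with and without the element. On day 3, 29 of the 33 members with a CHR and 6 of the 9 without one were lower than control, with median log2 differences of -0.46 and -0.49. On day 1, 18 of the 33 with a CHR and 5 of the 9 without one were higher than control, with medians of 0.25 and 0.30. Of all genes tested, 6.45% were called lower on day 3 and 31.1% were called higher on day 1.

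**Figure D1:**
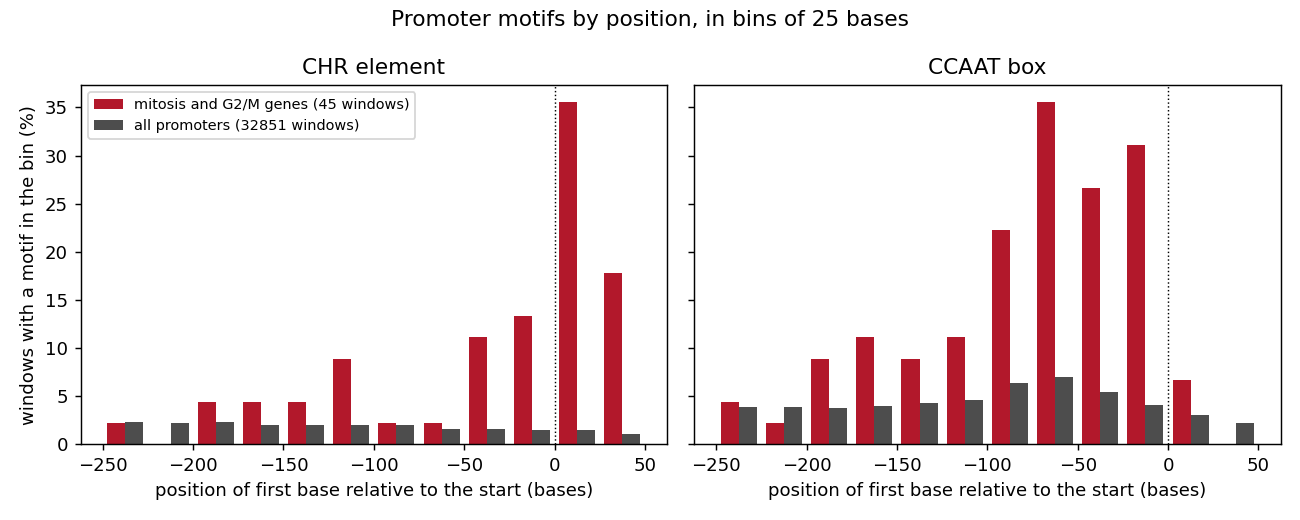
Share of promoter windows (percent) holding a CHR or a CCAAT box by distance from the gene start (bases, in bins of 25), for the 45 windows of 42 members and for all 32851 RefSeq mouse windows. The member bars stand above the low level of all promoters mainly just before and after the start for the CHR and before it for the CCAAT box.

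The library totals worked back from the table were 30545004 to 36749577 reads on day 3, 23032594 to 27850348 on day 1 and 30278210 to 38414668 in control. For a gene of 2 kb, 1 FPKM stood for 46.1 to 76.8 reads, and the fewest reads for any member in any library were 51, for Cdc25c. The ribosomal RNA gene Rn45s took 9.15% to 11.1% of reads on day 3, 7.67% to 9.36% on day 1 and 9.41% to 11.9% in control. Astrocyte markers were expressed, among them Gfap at 1490 FPKM in control. The summed level of 10 such markers was 2546 to 2581 FPKM on day 3, 2049 to 2313 on day 1 and 2773 to 2842 in control. Of these 10 markers, 1 had a mean below 1 FPKM, and their calls are given below with those of other cell types. Microglial and oligodendrocyte lineage transcripts were present as well. So were transcripts used as mural cell markers, which summed to 2081 to 2153 FPKM on day 1 and 1123 to 1221 FPKM in control. The levels of these markers are given beside the results.

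The members were expressed at low to moderate levels, with means over the 9 libraries of 1.18 FPKM (Mybl2) to 27.8 FPKM (Bub3) and a median of 4.30 FPKM, beside 9.68 FPKM for all 12611 genes tested. Only 5 of the 52 lay above that median, and 32 were below 5 FPKM. Summed over the 52 genes, the level was 214, 211 and 216 FPKM in the day 3 libraries, 318, 338 and 334 FPKM in the day 1 libraries, and 274, 313 and 286 FPKM in the controls. The 3 groups did not overlap in this sum: every day 3 library was below every control, and every day 1 library was above every control. The members took 0.0683%, 0.0671% and 0.0682% of the reads on day 3, 0.102%, 0.108% and 0.107% on day 1 and 0.0886%, 0.101% and 0.0915% in control. One library stood apart within its group. Control replicate 2 had the highest value of the 3 controls for 43 of the 52 genes, so the counts over all members, and those by role that it changes, are given with and without it.

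On day 3 the mitotic genes were lower than in untreated cultures almost throughout. Of the 52, 44 fell and none rose, and the other 8 had log2 differences between -0.49 and -0.01. In this comparison 13.8% of all 12611 genes were called in either direction, 7.37% higher and 6.45% lower (limma on log2(FPKM + 0.1), Benjamini-Hochberg adjusted p below 0.05 over all genes tested). The median log2 difference of the members was -0.48, which is 1.39-fold lower, beside 0.01 for all genes. The range was -0.85 for Pbk to -0.01 for Bub3. For 49 of the 52 genes all 3 day 3 libraries lay below all 3 controls, beside 17.8% of all genes. The counts over all genes, 929 higher and 813 lower, dropped to 565 and 465 without day 3 replicate 1, to 531 and 491 without day 3 replicate 3, and the lower count dropped to 536 without control replicate 3. Without control replicate 2, 37 of the 52 fell and the median was -0.42. In RNA from whole cultures, fewer dividing cells and less of these transcripts per cell cannot be told apart.

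On day 1 the picture was mixed: 26 members rose, 3 fell and 23 did not pass the test. The counts stand beside a large response of the whole transcriptome: 62.2% of all genes were called on day 1, 31.1% of all genes higher and 31.1% lower. The share of members called in either direction, 55.8%, was near that background. The median log2 difference was 0.25, or 1.19-fold higher, beside -0.00 for all genes, with a range of -0.21 (Mybl2) to 0.63 (Hmmr). All 3 day 1 libraries lay above all 3 controls for 25 members, beside 28.8% of all genes, and below them for 5, beside 37.3% of all genes. Without control replicate 2, 34 rose, 1 fell and the median was 0.31.

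Between the 2 treated groups, 48 members were lower on day 3 than on day 1, none was higher, and Cdc25b, Incenp, Bub3 and Mybl2 did not pass the test. Of all genes 56.2% were called in this comparison, 27.9% higher and 28.4% lower. For 48 members all 3 day 3 libraries lay below all 3 day 1 libraries, beside 28.9% of all genes. The median log2 difference was -0.72, or 1.65-fold lower on day 3, with a range of -1.08 (Hmmr) to 0.06 (Mybl2). The 3 comparisons share libraries, so they are not independent of each other.

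**Figure D2:**
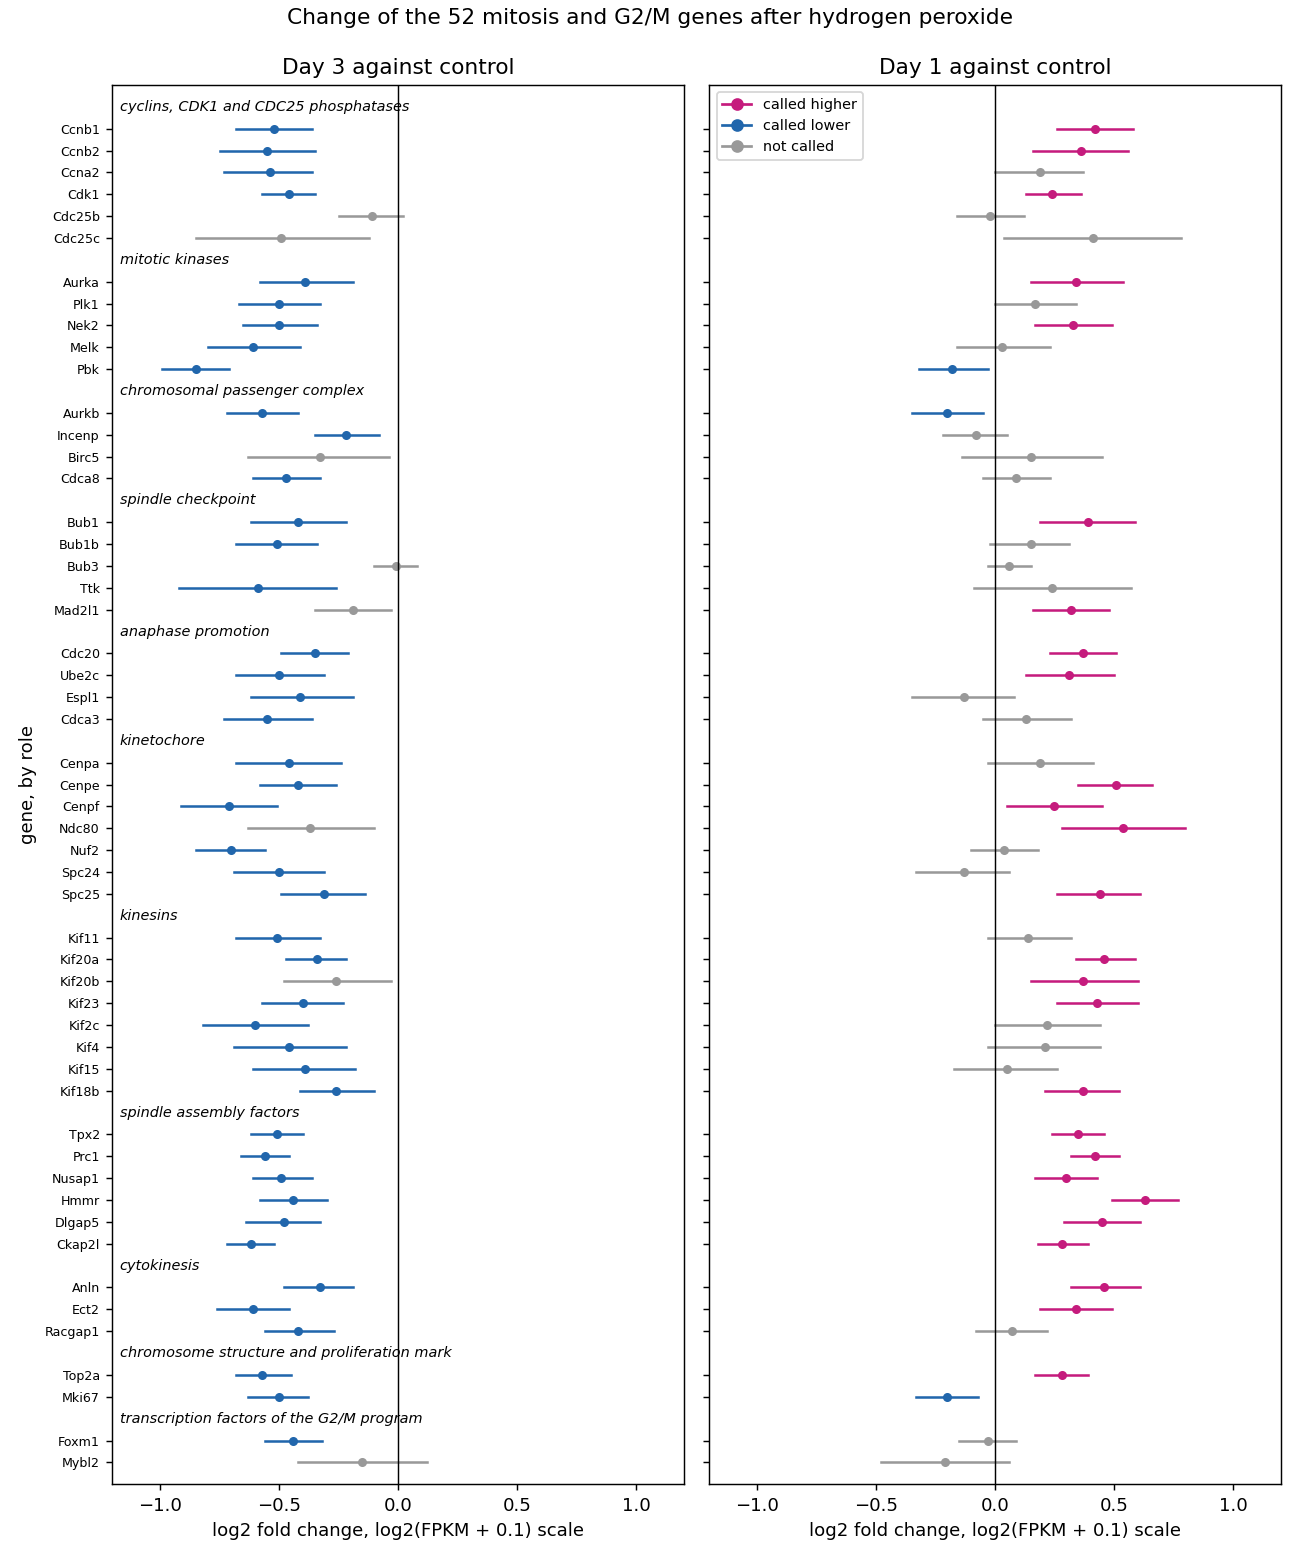
Log2 differences of the 52 members by role, with 95% intervals, on day 3 against control (left) and on day 1 against control (right); pink marks genes called higher, blue genes called lower and grey genes that did not pass. All 52 points lie below 0 on the left, from -0.85 to -0.01, whereas on the right they run from -0.21 to 0.63.

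The counts by role, here and in the following paragraphs, stand beside the same shares of all genes. On day 3, 13.8% were called, 6.45% lower, and on day 1, 62.2% were called, 31.1% higher. Each role holds few genes, so a count near these shares is not a result about the role. The cyclin, CDK1 and CDC25 genes start mitosis. Of these 6, 4 fell on day 3, and 3 rose on day 1, or 5 without control replicate 2. Ccnb1, which encodes cyclin B1, had 5.48, 4.89 and 4.85 FPKM on day 3, 8.58, 10.6 and 10.1 FPKM on day 1 and 7.33, 7.36 and 7.5 FPKM in control. The groups did not overlap, with day 1 highest and day 3 lowest. Ccnb1 was 1.43-fold lower on day 3 than in control (log2 -0.52, SE 0.073, adjusted p = 0.00128) and 1.34-fold higher on day 1 (log2 0.42, SE 0.073, adjusted p = 0.000509). Cdk1, the kinase that cyclin B activates, had 3.24, 3.04 and 3.20 FPKM on day 3, 5.04, 5.40 and 5.00 FPKM on day 1 and 4.21, 4.62 and 4.45 FPKM in control. It followed the same order, 1.37-fold lower than control on day 3 (log2 -0.46, SE 0.051, adjusted p = 0.000339) and 1.18-fold higher on day 1 (log2 0.24, SE 0.051, adjusted p = 0.00163). Ccna2, cyclin A2, which serves S phase as well as mitotic entry, had 5.08, 4.63 and 4.67 FPKM on day 3, 7.32, 8.38 and 8.09 FPKM on day 1 and 6.45, 8.30 and 6.71 FPKM in control. Its day 1 libraries overlapped control replicate 2, and it fell 1.46-fold on day 3 (adjusted p = 0.00219) without passing the test on day 1 (log2 0.19, adjusted p = 0.0787). Without control replicate 2 it did pass on day 1, at a log2 difference of 0.29. Ccnb2 moved with Ccnb1, by -0.55 on day 3 and 0.36 on day 1. The CDC25 phosphatases, which remove the inhibitory phosphates from CDK1, were less uniform. Cdc25b had log2 differences of -0.11 on day 3 and -0.02 on day 1, and Cdc25c of -0.49 and 0.41, with adjusted p-values of 0.0808 and 0.0513.

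All 5 mitotic kinase genes fell on day 3, and 2 rose on day 1, or 3 without control replicate 2. Plk1, the Polo-like kinase of centrosome maturation and cytokinesis, had 4.45, 4.29 and 4.82 FPKM on day 3, 7.25, 7.18 and 7.06 FPKM on day 1 and 5.77, 7.48 and 6.38 FPKM in control. The day 3 libraries were below all others, and those of day 1 lay within the control range. It was 1.42-fold lower than control on day 3 (log2 -0.50, adjusted p = 0.00184). Pbk, a kinase active in mitosis, had 4.46, 4.33 and 4.88 FPKM on day 3, 7.5, 7.63 and 6.59 FPKM on day 1 and 7.95, 9.05 and 8.12 FPKM in control. This was the deepest fall of any member on day 3, 1.80-fold (log2 -0.85, SE 0.064, adjusted p = 3.39e-05), and Pbk was also 1 of the 3 members called lower on day 1 (log2 -0.18, adjusted p = 0.0353). That day 1 call was lost without control replicate 2 (adjusted p = 0.137) and without day 1 replicate 3 (adjusted p = 0.135). Aurka, the spindle pole Aurora kinase, and Nek2, which acts in centrosome separation, rose on day 1 by 0.34 and 0.33 and fell on day 3 by 0.39 and 0.50 on the log2 scale. The day 3 call of Aurka was lost without day 3 replicate 1 (adjusted p = 0.0533). Melk differed from control by -0.61 on day 3, a fall, and by 0.03 on day 1.

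The chromosomal passenger complex, which corrects wrong attachments of chromosomes to the spindle, had 3 of 4 genes that fell on day 3, or 2 without control replicate 2, and none that rose on day 1. Aurkb, its kinase, had 3.28, 3.78 and 3.66 FPKM on day 3, 4.43, 4.46 and 4.84 FPKM on day 1 and 5.40, 5.51 and 5.30 FPKM in control. The control libraries were the highest, unlike for cyclin B1. Aurkb was 1.48-fold lower than control on day 3 (log2 -0.57, adjusted p = 0.000498) and 1.15-fold lower on day 1 (log2 -0.20, adjusted p = 0.0218). The day 1 call was lost without control replicate 1 or 2 (adjusted p = 0.0603 and 0.0591) and without day 1 replicate 1 or 2 (adjusted p = 0.0704 and 0.0719). Incenp, the scaffold of the complex, had 7.01, 8.03 and 7.88 FPKM on day 3, 8.18, 8.69 and 7.97 FPKM on day 1 and 8.39, 9.47 and 9.10 FPKM in control. Its day 3 libraries were below all controls and overlapped day 1. Its fall on day 3 was 1.16-fold (log2 -0.22, adjusted p = 0.0375), and it was lost without any one of control replicates 2 and 3, day 1 replicate 1 and day 3 replicates 1 and 3, at adjusted p-values between 0.0516 and 0.121. Cdca8, borealin, had 4.99, 4.62 and 4.45 FPKM on day 3, 6.37, 7.42 and 6.86 FPKM on day 1 and 6.42, 7.03 and 6.35 FPKM in control. It fell 1.38-fold on day 3 (log2 -0.47, adjusted p = 0.00119), and its day 1 and control libraries overlapped. Birc5, survivin, differed by -0.33 on day 3 and 0.15 on day 1 and passed neither test.

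Of the 5 spindle checkpoint genes, 3 fell on day 3 and 2 rose on day 1, or 2 and 3 without control replicate 2. Bub3, which brings the BUB kinases to kinetochores and whose promoter heads the sequences above, moved least of all members on day 3. It had 26.9, 27.0 and 27.8 FPKM on day 3, 27.7, 28.1 and 29.1 FPKM on day 1 and 25.7, 28.1 and 29.3 FPKM in control. The 3 groups overlapped, and the log2 differences of -0.01 on day 3 (95% interval -0.1 to 0.08) and 0.06 on day 1 (-0.03 to 0.15) did not pass the test. Mad2l1, the MAD2 protein that inhibits CDC20, had 4.95, 4.63 and 4.95 FPKM on day 3, 6.48, 6.60 and 7.57 FPKM on day 1 and 5.44, 6.07 and 5.34 FPKM in control. It was highest on day 1, where it rose 1.25-fold (log2 0.32, adjusted p = 0.00255), and its day 3 difference of -0.19 did not pass (adjusted p = 0.104). Bub1, a checkpoint kinase, rose by 0.39 on day 1 and fell by 0.42 on day 3. The other checkpoint kinase genes, Bub1b and Ttk, fell on day 3 by 0.51 and 0.59 and differed on day 1 by 0.15 and 0.24, which did not pass. The day 3 call of Ttk was lost without control replicate 2 or 3 or day 3 replicate 3 (adjusted p = 0.0832, 0.0792 and 0.0575).

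The 4 genes listed under anaphase promotion all fell on day 3, or 3 without control replicate 2. On day 1, 2 of the 4 rose, or 3 without control replicate 2 or without day 1 replicate 1. Ube2c, the ubiquitin-conjugating enzyme of the anaphase-promoting complex, had 9.71, 12.2 and 11.4 FPKM on day 3, 18.2, 19.3 and 20.3 FPKM on day 1 and 15.4, 17.1 and 15 FPKM in control. Its groups did not overlap, and it was 1.41-fold lower than control on day 3 (log2 -0.50, SE 0.084, adjusted p = 0.0033) and 1.24-fold higher on day 1 (log2 0.31, SE 0.084, adjusted p = 0.00743). Cdc20, the activator of that complex in metaphase, had 7.21, 6.56 and 7.26 FPKM on day 3, 11.1, 12.5 and 10.9 FPKM on day 1 and 8.28, 9.82 and 9.15 FPKM in control. Here too day 1 was highest and day 3 lowest, with a fall of 1.27-fold on day 3 (log2 -0.35, adjusted p = 0.00442) and a rise of 1.29-fold on day 1 (log2 0.37, adjusted p = 0.00042). Cdca3, placed in this list although it is an F-box-like protein of mitotic entry, fell by 0.55 on day 3. Espl1, separase, the protease that cleaves cohesin, fell by 0.41 on day 3, a call lost when control replicate 1, control replicate 2, day 3 replicate 1 or day 3 replicate 3 was left out (adjusted p between 0.0553 and 0.0779).

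Of the 7 kinetochore genes, 6 fell on day 3 and 4 rose on day 1, or 5 and 5 without control replicate 2. Cenpa, the histone variant that marks centromeres, had 4.80, 4.73 and 4.91 FPKM on day 3, 6.98, 7.97 and 7.74 FPKM on day 1 and 5.56, 7.94 and 6.97 FPKM in control. Its day 3 libraries lay close together below all others (1.38-fold lower than control, adjusted p = 0.0119), while day 1 and control overlapped (log2 0.19, adjusted p = 0.115). Without control replicate 2 it passed on day 1 (log2 0.30, adjusted p = 0.013). Cenpf, a large kinetochore and nuclear matrix protein, had 1.55, 1.73 and 1.56 FPKM on day 3, 2.93, 3.39 and 3.26 FPKM on day 1 and 2.46, 3.01 and 2.73 FPKM in control. The day 3 libraries were again the lowest. Its 1.19-fold rise on day 1 (adjusted p = 0.0327) was lost without control replicate 1 or 3 (adjusted p = 0.121 and 0.0726) and without day 1 replicate 2 or 3 (adjusted p = 0.104 and 0.0922). Spc25, of the NDC80 complex that grips microtubules, had 3.94, 3.62 and 3.33 FPKM on day 3, 5.50, 6.83 and 6.04 FPKM on day 1 and 4.47, 4.57 and 4.68 FPKM in control. It rose 1.36-fold on day 1 (log2 0.44, adjusted p = 0.000652) and fell 1.24-fold on day 3 (log2 -0.31, adjusted p = 0.0257). The day 3 call was lost without any one of the controls or day 3 replicate 3 (adjusted p between 0.0632 and 0.0942). The other genes of that complex did not move alike. Ndc80 rose by 0.54 on day 1 and differed by -0.37 on day 3 (adjusted p = 0.067), Nuf2 differed by 0.04 on day 1 and fell by 0.70 on day 3, and Spc24 differed by -0.13 on day 1 and fell by 0.50 on day 3. Cenpe, a kinetochore motor, rose by 0.51 on day 1 and fell by 0.42 on day 3.

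The 8 kinesin genes encode motors of the spindle and midzone, and 7 of them fell on day 3 and 4 rose on day 1. Kif20a, a midzone motor needed for cytokinesis, had 3.41, 3.25 and 3.40 FPKM on day 3, 5.99, 6.05 and 5.61 FPKM on day 1 and 4.14, 4.72 and 4.15 FPKM in control. The groups were well apart, 1.27-fold lower than control on day 3 (log2 -0.34, adjusted p = 0.00303) and 1.38-fold higher on day 1 (log2 0.46, adjusted p = 4.04e-05). Kif11, the motor that pushes spindle poles apart, had 3.14, 3.23 and 3.34 FPKM on day 3, 4.88, 5.50 and 4.88 FPKM on day 1 and 4.47, 5.37 and 4.32 FPKM in control. Only day 3 stood apart for Kif11 (1.42-fold lower, adjusted p = 0.00213). On day 1 it passed when control replicate 2 was left out, at a log2 difference of 0.23. Kif23, Kif20b and Kif18b rose on day 1 by 0.43, 0.37 and 0.37. On day 3, Kif2c fell by 0.60, Kif23 by 0.40 and Kif4, Kif15 and Kif18b by 0.46, 0.39 and 0.26, while Kif20b differed by -0.26 without passing (adjusted p = 0.124). The day 3 calls of Kif4, Kif15 and Kif18b were each lost on leaving out single libraries, among them control replicate 2 (adjusted p = 0.0505, 0.0818 and 0.0884) and day 3 replicate 1 (adjusted p = 0.0701, 0.086 and 0.129). Without either of those libraries 4 kinesin genes fell, and without control replicate 2 6 rose on day 1.

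The spindle assembly factors moved together: all 6 rose on day 1, all 6 fell on day 3, and for each of the 6 the 3 groups did not overlap. Prc1, which bundles microtubules in the midzone, had 6.97, 7.49 and 7.12 FPKM on day 3, 14.3, 14.0 and 14.2 FPKM on day 1 and 10.2, 11.3 and 10.8 FPKM in control. It was 1.47-fold lower than control on day 3 (log2 -0.56, SE 0.045, adjusted p = 5.24e-05), 1.34-fold higher on day 1 (log2 0.42, SE 0.045, adjusted p = 1.54e-05) and 1.98-fold lower on day 3 than on day 1 (adjusted p = 8.95e-08). Tpx2, which activates Aurora A on spindle microtubules, had 4.93, 4.62 and 5.07 FPKM on day 3, 8.40, 9.22 and 8.85 FPKM on day 1 and 6.98, 7.35 and 6.82 FPKM in control. Its fall of 1.42-fold on day 3 (adjusted p = 0.000175) and rise of 1.27-fold on day 1 (adjusted p = 0.000111) passed the test in both comparisons. Hmmr, a microtubule-associated hyaluronan receptor named after its values were seen because its change between the days was the largest of any member, averaged 2.61 ± 0.111 FPKM on day 3, 5.55 ± 0.360 FPKM on day 1 and 3.62 ± 0.186 FPKM in control (SD, n = 3 each). It rose 1.55-fold on day 1 (limma adjusted p = 8.73e-06), fell 1.36-fold on day 3 (limma adjusted p = 0.00142) and was 2.11-fold lower on day 3 than on day 1 (limma adjusted p = 3.63e-07). The remaining factors, Nusap1, Dlgap5 and Ckap2l, rose by 0.28 to 0.45 on day 1 and fell by 0.48 to 0.62 on day 3.

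The 3 cytokinesis genes, which build and close the contractile ring, all fell on day 3. Racgap1, a subunit of centralspindlin, had 8.79, 7.93 and 8.55 FPKM on day 3, 11.5, 11.8 and 11.8 FPKM on day 1 and 11.3, 12.7 and 10.3 FPKM in control. It fell 1.33-fold on day 3 (log2 -0.42, adjusted p = 0.00243) and overlapped control on day 1. Anln, anillin, had 4.22, 4.03 and 4.16 FPKM on day 3, 7.16, 6.89 and 7.53 FPKM on day 1 and 5.06, 5.91 and 4.97 FPKM in control. It separated into 3 levels, with a rise of 1.38-fold on day 1 (log2 0.46, adjusted p = 0.000123) and a fall of 1.26-fold on day 3 (log2 -0.33, adjusted p = 0.00798). Ect2, the exchange factor that activates RhoA at the cleavage site, rose by 0.34 on day 1 and fell by 0.61 on day 3.

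Top2a and Mki67, both used as marks of proliferation, moved in opposite directions on day 1. Top2a, the topoisomerase that untangles sister chromatids, had 10.3, 9.65 and 9.73 FPKM on day 3, 17.2, 17.9 and 18 FPKM on day 1 and 14.2, 16.2 and 14.2 FPKM in control. It rose 1.22-fold on day 1 (log2 0.28, SE 0.050, adjusted p = 0.000596) and fell 1.48-fold on day 3 (log2 -0.57, SE 0.050, adjusted p = 9.88e-05). Mki67, the Ki-67 protein that coats mitotic chromosomes and is present in all cycling phases, had 6.51, 6.60 and 6.29 FPKM on day 3, 7.56, 8.25 and 7.95 FPKM on day 1 and 8.97, 10.2 and 8.80 FPKM in control. Unlike Top2a it was highest in control, 1.42-fold lower on day 3 (log2 -0.50, SE 0.057, adjusted p = 0.00042) and 1.15-fold lower on day 1 (log2 -0.20, SE 0.057, adjusted p = 0.0114). Of the 3 members called lower on day 1, Mki67 alone remained called when control replicate 2 was left out.

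Among the transcription factors, Foxm1, an activator of late G2/M genes, had 3.90, 3.78 and 3.92 FPKM on day 3, 4.82, 5.48 and 5.08 FPKM on day 1 and 5.03, 5.53 and 5.45 FPKM in control. It fell 1.36-fold on day 3 (log2 -0.44, adjusted p = 0.000627), and day 1 overlapped control (log2 -0.03, adjusted p = 0.694). Mybl2, B-MYB, had 1.21, 1.22 and 1.01 FPKM on day 3, 1.06, 1.15 and 1.03 FPKM on day 1 and 1.17, 1.46 and 1.27 FPKM in control. It was the lowest of all members and passed no test, with differences of -0.15 on day 3 and -0.21 on day 1.

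**Figure D3:**
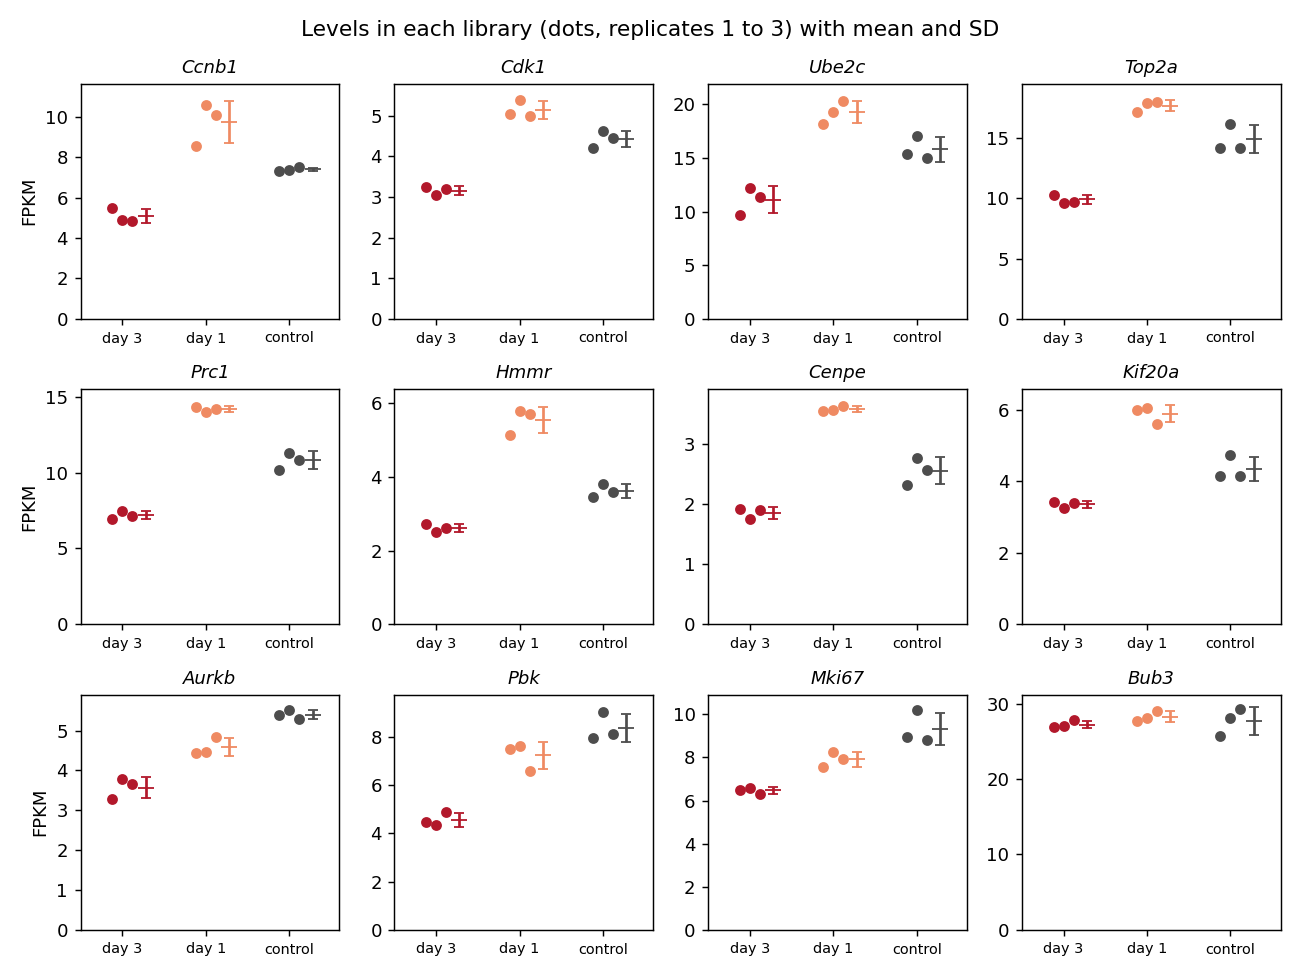
FPKM of 12 members in each library (points) with the group mean and SD (bars, n = 3), for day 3, day 1 and control from left to right; each panel has its own axis, which starts at 0. Prc1 and Hmmr show 3 separate levels with day 1 highest, Mki67, Aurkb and Pbk are highest in control, and Bub3 is level across the groups.

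The same libraries were examined for 6 lists of related cell cycle genes. Of 54 other mitotic genes tested, 25 fell and 1 rose on day 3 (median log2 -0.31), while 24 rose and 4 fell on day 1 (median 0.20). In all, 48.1% were called on day 3 and 51.9% on day 1, beside 13.8% and 62.2% of all genes. The count that fell on day 3 was 13 without control replicate 2 and 15 without day 3 replicate 3. The exception on day 3 was Gtse1, a microtubule-binding regulator of p53, at 10.3, 9.66 and 11.4 FPKM on day 3, 11.8, 13.1 and 14.0 FPKM on day 1 and 8.05, 8.52 and 8.23 FPKM in control. It was above control at both times, 1.27-fold on day 3 (adjusted p = 0.00772) and 1.59-fold on day 1 (adjusted p = 1.03e-05). The deepest falls on day 3 were those of Iqgap3, a scaffold of cell division and migration (log2 -0.84), and Pimreg, a mitotic regulator of the metaphase to anaphase step (log2 -0.65). On day 1, Cenpp, a centromere protein, rose by 0.61, and Cit, the citron kinase of the midbody, and Lmnb1, lamin B1, fell by 0.35 and 0.24.

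DNA replication genes serve the S phase before mitosis. Of 37 tested, 15 fell and 5 rose on day 1 (median log2 -0.06), 54.1% in all, beside the 62.2% of all genes called in that comparison. On day 3, 15 fell and none rose (median -0.19), 40.5% in all, beside 13.8% of all genes. Without control replicate 2, 9 fell. Cdt1, a licensing factor of replication origins, fell by 0.63 on day 1 and 0.45 on day 3, and Pold1, the catalytic subunit of DNA polymerase delta, fell by 0.55 on day 1. Tyms and Dut, which supply thymidine nucleotides, each rose by 0.49 on day 1, and Rrm2, the ribonucleotide reductase subunit, rose by 0.20 on day 1 and fell by 0.43 on day 3. The difference between this list and the members was not tested.

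Among genes that restrain the cycle, Cdkn1a and Ccng1 were higher than control at both times. Cdkn1a, the CDK inhibitor p21 and a p53 target, had 136, 137 and 142 FPKM on day 3, 162, 167 and 168 FPKM on day 1 and 83.0, 85.6 and 88.4 FPKM in control. It was 1.63-fold higher than control on day 3 (adjusted p = 9.34e-07) and 1.98-fold higher on day 1 (adjusted p = 3.4e-09). Ccng1, cyclin G1, another p53 target, had 145, 131 and 148 FPKM on day 3, 209, 216 and 214 FPKM on day 1 and 93.3, 97.9 and 94.7 FPKM in control. It showed the same order, 1.5-fold above control on day 3 (adjusted p = 9.96e-06) and 2.28-fold on day 1 (adjusted p = 3.5e-09). Cdkn2b, the inhibitor p15 of CDK4 and CDK6, was higher by 0.33 on day 3 and 0.90 on day 1. In the list of 14 tested G1 cyclins, CDKs and CDK inhibitors, 3 rose and 5 fell on day 3, and 6 rose and 6 fell on day 1. The called share was 57.1% on day 3 and 85.7% on day 1, beside 13.8% and 62.2% of all genes. The count that fell on day 3 was 3 without control replicate 1, control replicate 3 or day 3 replicate 1. The falls included those of 2 CDK inhibitors, so genes that restrain the cycle moved in both directions. Cdkn2c, p18, fell by 0.50 on day 3 and 0.41 on day 1, and Cdkn1c, p57, by 0.44 and 0.82. Ccnd3, cyclin D3, fell by 0.11 on day 3 and 0.46 on day 1.

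Among 13 tested genes that control entry into mitosis, 4 rose and none fell on day 3 (median log2 0.03), and 7 rose and 1 fell on day 1 (median 0.18). The called share was 30.8% on day 3, beside 13.8% of all genes, and 61.5% on day 1, near the 62.2% of all genes. Plk2, a stress-induced Polo-like kinase, rose by 0.37 on day 3 and 0.90 on day 1. Gadd45a, a stress protein that inhibits CDK1, differed by 0.15 on day 3 (adjusted p = 0.0264) and 0.13 on day 1 (adjusted p = 0.0145). Both Gadd45a calls were lost without control replicate 2 (adjusted p = 0.0924 on day 3 and 0.0581 on day 1). Gadd45g was the 1 gene of this list that fell on day 1, by 0.15, a call lost without control replicate 1 or any one of the day 1 libraries. Wee1, the kinase that puts the inhibitory phosphate on CDK1, averaged 7.29 ± 0.229 FPKM on day 3, 7.11 ± 0.182 FPKM on day 1 and 7.66 ± 0.369 FPKM in control (SD, n = 3 each) and passed neither test in limma (adjusted p = 0.518 on day 3 and 0.198 on day 1).

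Another list held genes for regulators of the cell cycle, only some of which encode proteins that bind CHR or CCAAT elements. Of 19 tested genes for DREAM, RB, E2F and NF-Y proteins, 1 rose and 3 fell on day 3, and 1 rose and 5 fell on day 1. The called share was 21.1% on day 3 and 31.6% on day 1, beside 13.8% and 62.2% of all genes. Only 1 fell on day 3 on leaving out control replicate 1, control replicate 2, day 3 replicate 1 or day 3 replicate 3, and up to 3 rose on day 1 without control replicate 1. Rb1, the retinoblastoma protein, was the 1 that rose at each time, by 0.17 on day 3 and 0.39 on day 1. The atypical repressors E2f7 and E2f8 fell by 0.69 and 0.42 on day 3 and by 0.58 and 0.35 on day 1. Rbl2, the p130 protein of DREAM, differed by 0.09 on day 3 (adjusted p = 0.0952) and fell by 0.18 on day 1 (adjusted p = 0.000444), and E2f4, its partner, differed by -0.08 on day 3 (adjusted p = 0.241) and fell by 0.25 on day 1 (adjusted p = 0.000339). Of the 16 subunits of the anaphase-promoting complex and its partners, none rose and 2 fell on day 3, Ube2s by 0.23 and Fzr1, the activator CDH1, by 0.15. The Fzr1 call was lost without any one of control replicates 1 and 3 and the 3 day 3 libraries (adjusted p between 0.06 and 0.111). On day 1, 5 rose, led by Cdc27 (0.43) and Anapc4 (0.29), and 5 fell, led by Anapc13 (-0.23) and Anapc2 (-0.21). The called share of these 16 genes, 12.5% on day 3 and 62.5% on day 1, was near the 13.8% and 62.2% of all genes. The count that fell on day 1 was 2 without control replicate 3, 3 without day 1 replicate 1 or 3, and 8 with FPKM as deposited, without rescaling.

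**Figure D4:**
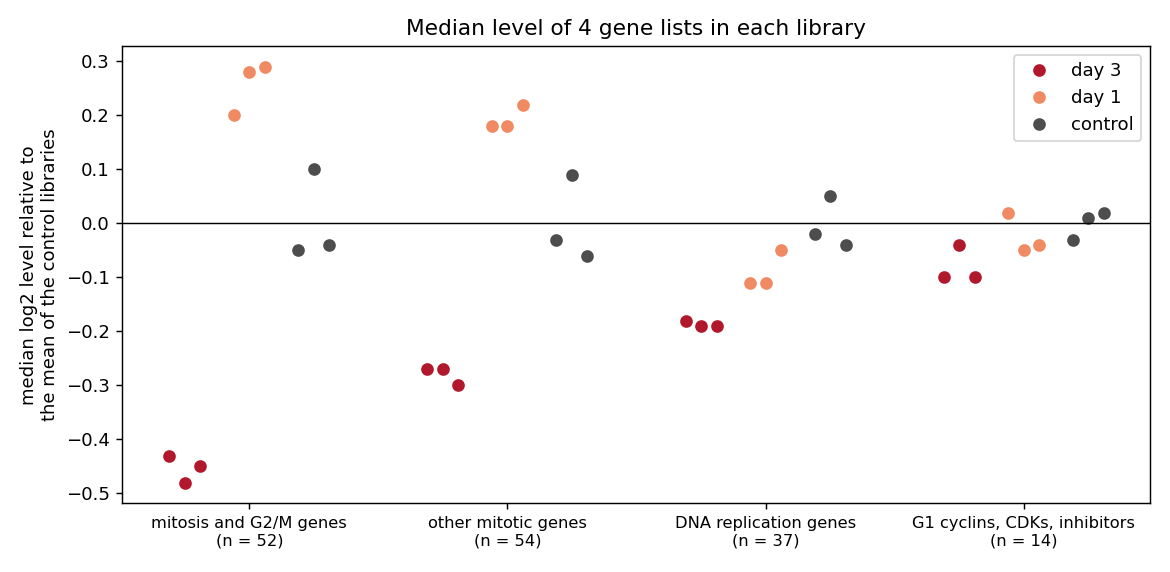
Median log2 difference from the control mean in each library, with day 3, day 1 and control libraries from left to right. The lists shown are the 52 members, the other mitotic genes, the DNA replication genes, and the G1 cyclins, CDKs and CDK inhibitors. The members stand at -0.43, -0.48 and -0.45 on day 3, at 0.20, 0.28 and 0.29 on day 1 and at -0.05, 0.10 and -0.04 in control, and the DNA replication genes are below 0 in all 6 treated libraries.

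Markers of astrocytes and of other cell types moved with the groups, and their part in these results was not tested. The counts stand beside 13.8% of all genes called on day 3 and 62.2% on day 1. Of 9 tested astrocyte markers, 3 fell and none rose on day 3, and 6 fell and 2 rose on day 1. Of 10 tested microglial markers, none was called on day 3, and 9 fell and 1 rose on day 1. Their summed level over 11 genes was 196 to 253 FPKM on day 3, 93.3 to 99.2 FPKM on day 1 and 237 to 261 FPKM in control. Of 10 tested markers of the oligodendrocyte lineage, which includes dividing progenitors, 8 fell and none rose on day 3, and 9 fell and 1 rose on day 1, with sums over 11 genes of 428 to 461, 357 to 382 and 520 to 550 FPKM in day 3, day 1 and control libraries. Both sums were lowest on day 1, as were the astrocyte, ependymal and fibroblast sums. The mural cell sum was highest on day 1. Mural cell markers summed to 1045 to 1132 FPKM on day 3, 2081 to 2153 FPKM on day 1 and 1123 to 1221 FPKM in control. The sums ran from 120 to 137 FPKM on day 3, 79.1 to 88.2 FPKM on day 1 and 133 to 146 FPKM in control for ependymal markers, and from 150 to 156, 118 to 124 and 134 to 139 FPKM in the same order for fibroblast markers. Neuron markers summed to 109 to 110 FPKM on day 3, 109 to 112 FPKM on day 1 and 101 to 103 FPKM in control, and of 3 tested, 2 rose on day 3 and 3 on day 1. Endothelial markers summed to 14.7 to 15.9 FPKM on day 3, 12.7 to 13.5 FPKM on day 1 and 12.8 to 13.6 FPKM in control, and the 1 tested rose on day 3 (log2 0.29). Of 3 tested mural cell markers, 1 fell on day 3 and 2 rose on day 1. Of 4 tested ependymal markers, 1 fell on day 3 and 4 fell on day 1, and of 4 tested fibroblast markers, 2 rose on day 3 while 2 rose and 2 fell on day 1. No marker was at 0 in every library. Pecam1 and Cldn5 of endothelium, Rbfox3 of neurons, and Abcc9 and Kcnj8 of mural cells had means below 0.1 FPKM. So did Dpt of fibroblasts and Tmem212 of ependymal cells.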

How the data were processed

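Total RNA of the 9 libraries was isolated with a column kit and made into libraries with a NEBNext Ultra RNA kit, per the labels' protocols. The authors deposited 1 table of FPKM values per gene symbol and library. The tools named in the submitters' processing notes are STAR 2.7.3a, cutadapt 2.6, FastQC 0.12.1 and DESeq2, and the genome builds named there are mm10 and GRCm38. The assignment of reads to genes, its annotation and its use of strand are steps not given in the sources used here, so that overlapping genes and reads shared between near-identical genes cannot be told apart.

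From the deposited FPKM, values were rescaled by median-of-ratios factors (0.9755 to 1.0193), the 12611 genes averaging 1 FPKM or more were kept, and log2(FPKM + 0.1) of all 9 libraries was fitted by group, without covariates, with limma 3.58.1 (trended variance, R 4.3.3). Calls have a Benjamini-Hochberg adjusted p below 0.05 over all genes tested, two-sided. Fold changes come from log2(FPKM + 0.1), and this understates changes of low genes. Whole reads were recovered for all 20350 genes above 0 (tolerance 0.01 read) and tested with limma-voom as an alternative. The fit was also run on simulated reads with changes set on day 3 against control. It called 78 of 100 genes changed by 0.5 on the log2 scale and 98 of 100 changed by 1. Of 12411 unchanged genes it called 9. The simulation gave every gene the same spread beyond sampling, so these rates need not hold for the real libraries. The precision of every value is limited by 3 libraries per group.

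The members and the lists were chosen with earlier results of these data known. Values in every library are given for the 2 members of each role with the highest mean and for Ccnb1, Cdk1, Mki67, Top2a, Cenpf, Aurkb and Foxm1. From each related list up to 2 genes with the largest called change in each direction are named, with Cdkn1a, Ccng1, Wee1, Gadd45a, Rbl2, E2f4 and Fzr1 in any case. Older symbols of 4 listed genes were matched through RefSeq synonyms. Promoters came from the RefSeq table for GRCm38.p6, which held 42 of the 52 members. Alternatives were the pseudocount, the filter, the scaling, the groups fitted, a replicate block, voom, a stricter threshold, leaving out each library, and, added after the data had been seen, leaving out the 2 libraries richest in Rn45s.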

Additional observations from a re-analysis of the deposited data

Results flagged for a closer look

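The differences from control were not the same at the 2 times: 48 of the 52 members had a day 3 difference that departed from their day 1 difference, tested as day 3 against day 1 in limma (adjusted p below 0.05), and all 48 were lower on day 3. In that comparison 28.4% of all genes were called lower. Hmmr, at 2.61 ± 0.111 FPKM on day 3 and 5.55 ± 0.360 FPKM on day 1 (SD, n = 3 each), departed most, by 1.08 on the log2 scale (limma adjusted p = 3.63e-07).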

How the results depend on the processing

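No called member changed direction under the alternatives run. Outside the stricter threshold, 26 of 29 day 1 calls, 35 of 44 day 3 calls and 47 of 48 calls between the days held under every alternative. Those lost under some were Aurkb, Cenpf and Pbk on day 1, Aurka, Bub1, Espl1, Incenp, Kif15, Kif18b, Kif4, Spc25 and Ttk on day 3, and Espl1 between the days. Leaving out 1 library gave 37 to 45 lower members on day 3, 25 to 34 higher and 1 to 3 lower on day 1, and 47 to 48 lower between the days. Without the 2 libraries richest in Rn45s, control replicate 1 and day 3 replicate 2, the counts were 40 lower on day 3 and 25 higher and 2 lower on day 1. At an adjusted p below 0.01, 0 members were lower on day 1 in limma, and the related lists had 24 lower genes on day 3 (50 at 0.05) and 23 on day 1 (36 at 0.05). All genes on day 3 came to 411 higher and 340 lower at 0.01, against 929 and 813. Leaving out 1 library gave 531 to 938 higher and 465 to 834 lower genes on day 3, and 29 to 48 lower genes of the related lists, which were 30 without the libraries richest in Rn45s.

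The median log2 difference of the members ran from -0.49 to -0.42 on day 3, from 0.21 to 0.31 on day 1 and from -0.77 to -0.68 between the days on leaving out 1 library. With a pseudocount of 1 it was -0.36 on day 3 and -0.58 between the days, where it was -0.71 without rescaling, -0.74 after quantile normalization and -0.74 in voom. By construction a larger pseudocount shrinks the differences of low genes, and the cause of the other shifts was not tested.

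Sign changes were found only in genes not called. On day 1, leaving out 1 library gave -0.075 to 0.025 for Cdc25b, -0.018 to 0.073 for Melk, -0.003 to 0.101 for Nuf2, -0.011 to 0.141 for Racgap1 and -0.066 to 0.018 for Foxm1, and quantile normalization gave 0.030 for Cdc25b, 0.016 for Espl1 and 0.005 for Foxm1. On day 3, leaving out 1 library gave -0.049 to 0.027 for Bub3. Between the days it gave -0.005 to 0.054 for Gadd45a, and quantile normalization gave -0.099 for Mybl2.

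The labels number the replicates alike in each group. Same-numbered libraries correlated at -0.079 to 0.111 in their deviations from the group means, and differently numbered ones at -0.149 to 0.147. These values show no pairing by number, but they cannot decide whether same-numbered libraries share a culture. With a replicate block, 45 members were lower on day 3, 28 higher and 3 lower on day 1, and 49 lower between the days.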
